A study of Mus musculus with 8 samples.

Results

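The urokinase system of J774A.1 macrophages was described through 7 genes (Plau, Plaur, Plat, Serpinb2, F3, F10 and Procr) of the 55487 listed in the expression table. The genes were picked by symbol with the measured difference between LPS and LPS + UDCA known, so their levels in this comparison are given as a description and carry no test. RNA sequencing was performed on 4 libraries of cells given LPS and 4 libraries of cells given LPS + UDCA, all collected after 24 h. The J774A.1 line is a continuously grown murine macrophage line. LPS comes from the outer membrane of bacteria and triggers an inflammatory response, and UDCA (ursodeoxycholic acid) is a bile acid whose effect on that response the study asked about. Per the study's methods, LPS was used at 1 μg/mL and UDCA at 1 mM. The same methods describe the sequenced cells as given UDCA with or without LPS, whereas the labels give LPS and LPS + UDCA. The study's results describe the sequenced cells as LPS-stimulated with and without UDCA, as the labels do, and the labels were followed. By the labels all 8 libraries received LPS, and no library without LPS was analysed here, so the comparison as labelled is of LPS-treated cells with and without UDCA, and LPS itself was not compared.

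Urokinase (Plau) and tissue-type plasminogen activator (Plat) are serine proteases that cut plasminogen into plasmin, which dissolves fibrin and degrades matrix proteins. Urokinase works at the cell surface, bound to its receptor Plaur, and is inactivated by serpins, among them PAI-2 (Serpinb2), a known product of LPS-activated macrophages. Activated macrophages can also start coagulation through tissue factor (F3), the cofactor that leads to activation of factor X (F10), while the endothelial protein C receptor (Procr) presents protein C for activation and so limits clotting. Serpinb2 is the only serpin among the 7 genes, and F3, F10 and Procr belong to coagulation and the protein C pathway, so the genes are named here by these roles and not as serpins.

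On GRCm38, the GENCODE M21 annotation places Plau (ENSMUSG00000021822) at chr14:20836660-20843385 with 11 exons, Plaur (ENSMUSG00000046223) at chr7:24462484-24475968 with 7 exons, and Plat (ENSMUSG00000031538) at chr8:22757727-22782844 with 14 exons. Serpinb2 (ENSMUSG00000062345) lies at chr1:107511423-107535478 with 8 exons, F3 (ENSMUSG00000028128) at chr3:121723537-121735048 with 6 exons, F10 (ENSMUSG00000031444) at chr8:13037308-13056676 with 9 exons, and Procr (ENSMUSG00000027611) at chr2:155751117-155755471 with 4 exons. All 7 are protein-coding genes on the + strand. The RefSeq promoter table (GRCm38.p6; 250 bases before to 50 bases after each start site) held 6 promoters of 5 of the 7 genes, since Serpinb2 has 2 start sites, while Plau and Plat had no entry. Both strands were searched for the AP-1 motif TGACTCA, bound by Fos and Jun proteins, and for the κB consensus, bound by NF-κB. The search covered the reverse complement of each motif, which is how the AP-1 match of F3 reads on the + strand. The AP-1 letters stood in 3 of the 6 promoters, 69 bases before the start site in Plaur, 135 bases before it in F3 and 154 bases before it in Procr, and in 5.2% of all 32851 promoters of this length. The κB consensus was read as GGGRNWYYCC (R is A or G, W is A or T, Y is C or T, N is any base). No match to it was found in the 6 promoters, against 4.51% of all promoters. Sites that depart from these letters were not searched, so a promoter without a match may still hold a variant site. The 3 promoters are shown because Plaur and F3 were lower and Procr was higher with UDCA, and all 3 hold this motif (capitals mark the AP-1 match, + strand, 5′ to 3′). A match is a description of the sequence only, and no factor was measured on it. The windows are chr7:24462233-24462532 for Plaur, chr3:121723287-121723586 for F3 and chr2:155750967-155751266 for Procr.
Plaur: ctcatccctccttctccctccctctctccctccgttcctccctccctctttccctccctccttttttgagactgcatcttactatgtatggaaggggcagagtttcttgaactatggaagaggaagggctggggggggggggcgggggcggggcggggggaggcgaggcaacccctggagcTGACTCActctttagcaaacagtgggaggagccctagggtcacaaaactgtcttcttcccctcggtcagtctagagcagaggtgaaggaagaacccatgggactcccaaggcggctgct
F3: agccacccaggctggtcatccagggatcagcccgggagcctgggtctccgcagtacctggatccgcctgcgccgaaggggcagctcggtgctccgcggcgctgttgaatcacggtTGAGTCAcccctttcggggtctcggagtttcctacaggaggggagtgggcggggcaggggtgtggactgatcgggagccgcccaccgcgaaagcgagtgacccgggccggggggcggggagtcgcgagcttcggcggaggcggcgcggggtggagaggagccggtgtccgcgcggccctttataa
Procr: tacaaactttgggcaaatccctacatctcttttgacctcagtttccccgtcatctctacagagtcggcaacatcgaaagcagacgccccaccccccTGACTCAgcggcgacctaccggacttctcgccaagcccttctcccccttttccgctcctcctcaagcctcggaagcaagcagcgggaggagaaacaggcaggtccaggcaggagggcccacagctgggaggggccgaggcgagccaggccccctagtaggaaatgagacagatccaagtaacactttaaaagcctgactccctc

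Values are given in TPM (transcripts as parts of a fixed total, with reads divided by gene length and scaled within each library). TPM keeps no read number, so depth was unknown for all 8 libraries and no counting error was computed. The deposited TPM summed to 973190 to 977485 in the LPS libraries and 958918 to 962737 in the LPS + UDCA libraries. Across genes, Pearson's r was 0.974 to 0.982 between libraries of the same group and 0.905 to 0.919 between groups, and 0 of 28 pairs of libraries were identical. Of 10 macrophage markers, 9 passed the filter and Mertk was listed at 0 in all libraries, with a summed level of 4245 to 4483 TPM under LPS and 2066 to 2325 TPM with UDCA. By limma with Benjamini-Hochberg adjustment, 6 of the 9 fell and 3 rose. Of all genes that passed the filter, 32.3% were lower and 40.2% higher at the FDR of 0.05. Itgam, also a gene of the plasminogen activation list (−2.91, adjusted p = 5.18e-09), Lyz2 (log2 fold change −2.19, adjusted p = 1.28e-09) and Cd68 (−1.39, adjusted p = 7.44e-10), Csf1r (−1.35), Cd86 (−1.03) and Cd14 (−0.39) fell, whereas Adgre1 (1.27, adjusted p = 4.64e-07) and Fcgr1 (1.48, adjusted p = 6.6e-08) and Spi1 (0.19) rose. None of the endothelial, hepatocyte, fibroblast, epithelial or lymphocyte markers passed the filter, and the summed level of each of these lists was at most 2.18 TPM in any library. Of 7 neutrophil markers, S100a8 and S100a9 passed the filter and 3 were at 0 in all libraries, with a summed level of 18.6 to 25.4 TPM under LPS and 2.72 to 9.03 TPM with UDCA. S100a9 passed the filter only through the LPS group, with means of 2.17 TPM under LPS and 0.24 TPM with UDCA. In bulk RNA, fewer cells of a state and less RNA per cell cannot be told apart, and the part of these marker shifts in the values below was not tested.

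The 7 genes covered a wide range of levels (the plot of the 7 genes by library). Under LPS the order by mean TPM was Plaur, Plau, Procr, F3, F10, Serpinb2 and Plat, where the libraries of F3, F10 and Serpinb2 overlapped one another. With UDCA the order was Procr, Plaur, Plau, F3, Plat, F10 and Serpinb2, where only F10 and Serpinb2 overlapped. Every LPS + UDCA library lay below every LPS library for 5 genes (Plau, Plaur, Serpinb2, F3 and F10) and above for Procr, and the groups overlapped for Plat. A mean of at least 1 TPM over the 8 libraries, the filter for the fit, was passed by 4 genes (Plau, Plaur, F3 and Procr). F3 passed it only through the LPS group, and 3 genes (Plau, Plaur and Procr) had a mean of at least 1 TPM in each group. Of the 11796 genes that passed, every LPS + UDCA library was above every LPS library in 37% and below in 29.9%. Past a fold change of 2 and an FDR of 0.05, 8.71% of them were upregulated and 8.44% downregulated, and at the FDR alone 40.2% were higher and 32.3% lower. Plau and Plaur were the members downregulated past both limits, and 0 members were upregulated past both. At the FDR alone 3 members (Plau, Plaur and F3) were lower and 1 (Procr) was higher. All these calls of members only restate how the genes were picked and are no test of them.

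**Figure D1:**
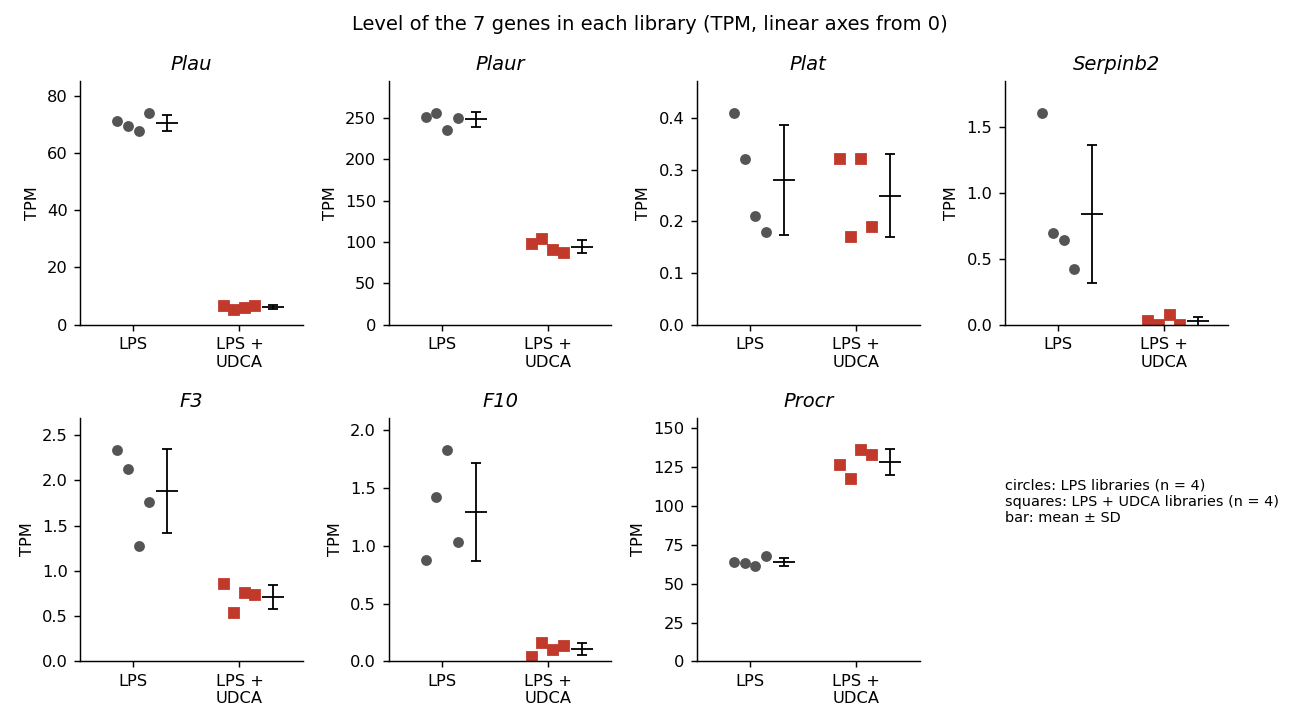
Level of each of the 7 genes in TPM (y axis, linear from 0, own scale per panel) in the 4 LPS libraries (circles) and the 4 LPS + UDCA libraries (squares), with bars for mean ± SD. The groups are apart for 6 genes, with Procr higher and Plau, Plaur, Serpinb2, F3 and F10 lower with UDCA, and they overlap for Plat.

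Plau, the protease that gives the system its name, had the lowest log2 fold change of the 7 genes on log2(TPM + 1), a scale on which the change of the low genes Serpinb2 and F10 is understated. Its level was 71.05, 69.31, 67.71 and 74.06 TPM in LPS replicates 1 to 4 and 6.61, 5.14, 5.97 and 6.71 TPM in LPS + UDCA replicates 1 to 4. The lowest LPS library was therefore far above the highest LPS + UDCA library, and the libraries of each group lay close together. The mean was 70.5 ± 2.72 TPM (SD, n = 4) under LPS and 6.11 ± 0.724 TPM (SD, n = 4) with UDCA, which is 8.66% of the LPS mean. The log2 fold change of Plau on log2(TPM + 1) was −3.34 (SE 0.077), rank 20 from the lowest of the 11796 genes. By level, Plau stood at percentile 85.0 of the tested genes under LPS and at percentile 29.2 with UDCA.

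Plat, the other plasminogen activator, was close to 0 in all libraries. Its level was 0.41, 0.32, 0.21 and 0.18 TPM in the LPS libraries and 0.32, 0.17, 0.32 and 0.19 TPM in the LPS + UDCA libraries. The groups overlapped, with a log2 difference of −0.03 (SE 0.075). The level of Plau over that of Plat within a library was 281 ± 107 (SD, n = 4) under LPS and 26.2 ± 7.90 (SD, n = 4) with UDCA, so the transcripts of urokinase outnumbered those of Plat in both groups. Plg, which encodes plasminogen, the substrate of both proteases and mainly a product of liver, was listed at 0 in all 8 libraries.

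Plaur, the receptor that holds urokinase at the cell surface, was the most abundant of the 7 genes under LPS. Its level was 250.77, 256.07, 235.48 and 250.39 TPM in the LPS libraries and 97.85, 103.74, 89.84 and 86.12 TPM in the LPS + UDCA libraries. The groups did not overlap, and the means were 248 ± 8.85 TPM (SD, n = 4) and 94.4 ± 7.93 TPM (SD, n = 4), with a log2 fold change of −1.39 (SE 0.059). Plaur was thus lower but stayed among the abundant transcripts, at percentile 95.4 under LPS and 89.2 with UDCA. The receptor and its ligand did not change to the same degree. The ratio of Plaur to Plau within a library was 3.38 to 3.69 under LPS and 12.8 to 20.2 with UDCA, with means of 3.52 ± 0.131 and 15.7 ± 3.14 (SD, n = 4).

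**Figure D2:**
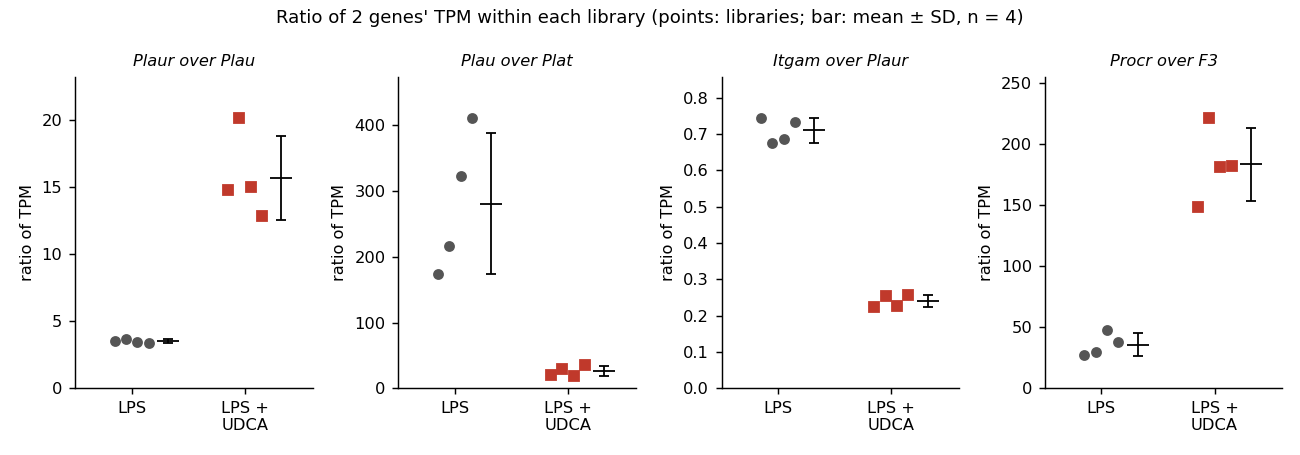
Ratio of the TPM of 2 genes within each library (y axis, linear from 0) for the LPS (circles) and LPS + UDCA (squares) libraries, with bars for mean ± SD (n = 4). Plaur over Plau was 3.38 to 3.69 under LPS and 12.8 to 20.2 with UDCA, and the groups are apart in all 4 panels.

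Other genes of plasminogen activation, among them surface partners of this receptor, were read from a list of 22 genes, of which 14 were tested. In limma with Benjamini-Hochberg adjustment over all genes tested, 8 were lower, 3 were higher and 3 did not pass the FDR, and 3 of the 8 (Itgam, Lrp1 and St14) also passed a fold change of 2. Of all genes tested, 32.3% were lower and 40.2% higher at the FDR, and 8.44% were downregulated past both limits. The median log2 fold change of the 14 genes was −0.31, against 0.08 for all genes tested. This list and the other pathway lists below were drawn up with earlier results of these data known, so their counts are a description. Genes of this list that are neither past both limits nor the most abundant of the list were named after their values were seen.

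Itgam, the CD11b chain of the integrin that binds Plaur on myeloid cells, was at 186.79, 173.22, 161.67 and 183.33 TPM under LPS and at 21.97, 26.28, 20.43 and 22.14 TPM with UDCA. The groups were far apart, and Itgam fell by 2.91 on the log2 scale (SE 0.0778, limma adjusted p = 5.18e-09). Itgam shares 67.2% of its 31-base words with Gm49368, a gene that it overlaps on the same strand and that went from 15.6 to 2.62 TPM, so how the reads of this locus were divided between the 2 genes is uncertain. The β chain partner of Itgam, Itgb2, rose from 92.4 to 117 TPM (log2 fold change 0.34, limma adjusted p = 1.4e-04), as did Itgb1 (0.42) and Itgb5 (0.62). Itgav had a log2 fold change of −0.23 and did not pass the FDR (limma adjusted p = 0.0895).

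Lrp1, the endocytic receptor that clears inhibited urokinase bound to Plaur, was at 182.82, 170.07, 150.43 and 164.29 TPM under LPS and at 54.72, 60.61, 51.4 and 41.17 TPM with UDCA. All LPS + UDCA libraries were below all LPS libraries, and Lrp1 fell by 1.67 (SE 0.110, limma adjusted p = 1.07e-06). St14, which encodes matriptase, a membrane protease that can activate urokinase, fell from 43.5 ± 1.88 to 15.2 ± 0.975 TPM (SD, n = 4; log2 fold change −1.46, SE 0.0575, limma adjusted p = 5.21e-08). Igf2r and Lrpap1, which encode a receptor known to bind Plaur and the chaperone of Lrp1, fell less, with log2 fold changes of −0.29 and −0.34 (limma adjusted p = 0.00792 and 0.00416). Met, the receptor of the growth factor that urokinase and matriptase can activate, did not pass the FDR (log2 fold change −0.24, limma adjusted p = 0.155).

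Of the genes that hold plasminogen at the cell surface, Anxa2, S100a10 and Eno1 fell by less than a fold change of 2. Anxa2, which encodes annexin A2, a binding partner of plasminogen, was at 1168.05, 1239.14, 1282.39 and 1223.32 TPM under LPS and at 927.67, 999.65, 865.7 and 837.96 TPM with UDCA. The groups did not overlap, and the log2 fold change was −0.44 (SE 0.0555, limma adjusted p = 7.97e-05). S100a10, the partner of annexin A2, had a log2 fold change of −0.65 (limma adjusted p = 1.57e-06) and Eno1, an enolase that also binds plasminogen, one of −0.79 (limma adjusted p = 1.46e-06), with 28.5% of the 31-base words of Eno1 found in other genes. Plgrkt, a membrane receptor of plasminogen, did not pass the FDR (50.4 against 48.9 TPM, log2 fold change −0.04, limma adjusted p = 0.501).

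**Figure D3:**
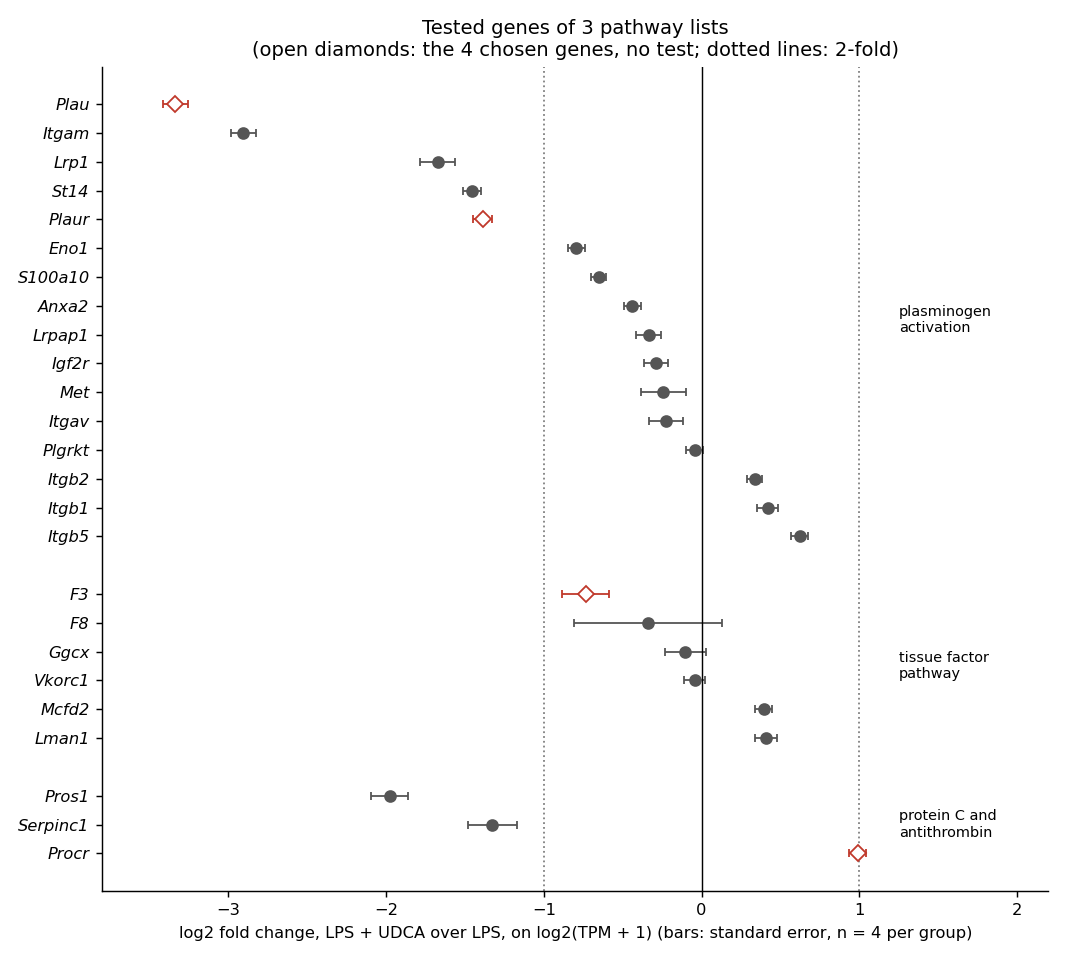
Log2 fold change on log2(TPM + 1), LPS + UDCA over LPS (x axis), of the tested genes of 3 pathway lists (rows; plasminogen activation, tissue factor and coagulation, and protein C and antithrombin), with bars for the standard error (n = 4 per group). Open diamonds are the 4 picked genes, which carry no test, filled circles are the others, and dotted lines mark a fold change of 2. Itgam (−2.91), Pros1 (−1.98), Lrp1 (−1.67), St14 (−1.46) and Serpinc1 (−1.33) lie beyond the lower line, and none of the filled circles lies beyond the upper line.

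Serpinb2 (PAI-2), the serpin of the set and an intracellular and secreted inhibitor of urokinase, was low in all libraries. Its level was 1.61, 0.70, 0.64 and 0.42 TPM in the LPS libraries and 0.03, 0, 0.07 and 0 TPM in the LPS + UDCA libraries. The lowest LPS library was above the highest LPS + UDCA library, and LPS replicate 1 was the highest of its group. The log2 difference on log2(TPM + 1) was −0.81 (SE 0.190) with a pseudocount of 1 and −2.80 with a pseudocount of 0.1, so its size depends on the pseudocount at this level. Of its 31-base words, 11.2% are shared with other transcripts, and Serpinb10, which it overlaps on the same strand, went from 0.103 to 0 TPM. Among the 7 genes, Serpinb2 alone holds the AU-rich nonamer TTATTTATT in its 3′ UTR, 266 bases from the start of that UTR, a type of element known from unstable mRNAs of activated macrophages and present in 7.90% of 10336 tested coding genes. The site on the transcript strand, with the nonamer in capitals, is shown as the feature that sets this UTR apart from the other 6, and mRNA stability was not measured.
Serpinb2: ttttacagtgTTATTTATTgtttatataa

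The shorter pentamer ATTTA occurred 7 times in the 3′ UTR of F3, 5 times in that of Serpinb2, 2 times each in Plau, Plaur and Plat, 1 time in Procr and 0 times in F10. The median over the tested coding genes was 1. The lower genes therefore ran from the highest count of the set (F3) to the lowest (F10).

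Serpina5 and A2m, further inhibitors of proteases of this system, were listed at 0 in all libraries. Over all 63 genes with a Serpin symbol other than Serpinb2, 31 were at 0 in all libraries and 9 were tested. Of the 9, 4 were lower, 2 were higher and 3 did not pass the FDR, with a median log2 fold change of −0.24. The shares over all genes tested were 32.3% lower and 40.2% higher. Serpinb9, an intracellular inhibitor of granzyme B, was upregulated past both limits, from 3.21 ± 0.207 to 7.79 ± 0.842 TPM (SD, n = 4; log2 fold change 1.06, SE 0.0904, limma adjusted p = 5.8e-06). With median-of-ratios scaling (0.99) and quantile normalization (0.97) Serpinb9 was under a fold change of 2. Serpinb6a, an abundant intracellular serpin, was also higher (113 to 185 TPM, log2 fold change 0.72, limma adjusted p = 3.12e-07), with 29% of its 31-base words shared with other genes. Serpinb6b (−0.94, limma adjusted p = 8.4e-04) and Serpinb1c (−0.80, limma adjusted p = 0.00106) were lower, with 6.83% and 11.8% of their 31-base words found in other genes. Serpinb1c and Serpinc1 passed the filter only through the LPS group. The serpins other than Serpinc1 and Serpinb9 in this paragraph were named after their values were seen.

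F3 (tissue factor), the cell-surface cofactor that starts coagulation, was low under LPS and lower with UDCA. Its level was 2.34, 2.13, 1.28 and 1.76 TPM in the LPS libraries and 0.85, 0.53, 0.75 and 0.73 TPM in the LPS + UDCA libraries. All LPS libraries were above 1 TPM and all LPS + UDCA libraries below it. The means were 1.88 ± 0.465 and 0.715 ± 0.134 TPM (SD, n = 4), a 2.63-fold ratio of means, whereas the log2 fold change on log2(TPM + 1) was −0.74 (SE 0.15) and on log2(TPM + 0.1) it was −1.26. The same ratio of means, 2.63, was found for Plaur, at a level far above that of F3.

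F10 (factor X), the protease that the tissue factor complex activates, was at 0.88, 1.42, 1.83 and 1.03 TPM under LPS and at 0.04, 0.16, 0.1 and 0.13 TPM with UDCA. The lowest LPS library was well above the highest LPS + UDCA library. The means were 1.29 ± 0.426 and 0.108 ± 0.0512 TPM (SD, n = 4), with a log2 difference of −1.03 (SE 0.136) at a pseudocount of 1 and −2.73 at 0.1. F10 did not reach a mean of 1 TPM over the 8 libraries and did not enter the fit. Its ratio of means, 12-fold, was near the 11.5 of Plau, but each F10 value rests on a level around or below 1 TPM. The ratio of means of Serpinb2 was larger still, 33.7-fold, and rests on a mean of 0.025 TPM with UDCA.

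Most other genes of the clotting pathway did not pass the filter. Of 23 listed genes besides F3 and F10, 8 were at 0 in all libraries and 5 were tested. Of the 5, 2 were higher, 0 were lower and 3 did not pass the FDR, with a median log2 fold change of −0.04. Over all genes tested, 40.2% were higher and 32.3% lower at the FDR. F7, the protease partner of tissue factor, was between 0.03 and 0.25 TPM, and F11, F12, F13a1, Fga and Fgg were at 0. The 2 that rose encode the cargo receptor that carries clotting factors out of the endoplasmic reticulum. Mcfd2, the most abundant of the list, was at 58.49, 59.11, 56.06 and 62.15 TPM under LPS and at 71.31, 77.61, 82.42 and 80.15 TPM with UDCA (log2 fold change 0.39, SE 0.0535, limma adjusted p = 1.25e-04). Its partner Lman1 rose from 45.2 to 60.0 TPM (log2 fold change 0.41, limma adjusted p = 5.37e-04). Vkorc1 and Ggcx, the vitamin K enzymes, had log2 fold changes of −0.04 and −0.10 and did not pass the FDR (limma adjusted p = 0.568 and 0.497).

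Procr, the protein C receptor, was the only gene of the 7 that was higher with UDCA. Its level was 64.03, 63.41, 61.09 and 67.57 TPM in the LPS libraries and 126.51, 117.54, 136.35 and 133.14 TPM in the LPS + UDCA libraries. The lowest LPS + UDCA library was well above the highest LPS library. The means were 64.0 ± 2.68 and 128 ± 8.31 TPM (SD, n = 4), with a log2 fold change of 0.99 (SE 0.054) and a ratio of means of 2.01. Procr went from percentile 83.6 to 92.1 of the tested genes by level, and with UDCA it was the most abundant of the 7. Its log2 fold change was 0.91 with median-of-ratios scaling and 1.06 with quantile normalization. Set against tissue factor, Procr over F3 within a library was 27.4 to 47.7 under LPS and 149 to 222 with UDCA.

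The other genes of the protein C and antithrombin list did not follow Procr. Of 6 genes, 2 were tested, and both were downregulated past both limits, against 8.44% of all genes tested. Of the 2, Serpinc1 passed the filter only through the LPS group. Pros1 (protein S), the cofactor of activated protein C, was at 7.17, 7.56, 6.99 and 7.14 TPM under LPS and at 1.02, 1.45, 1.22 and 0.72 TPM with UDCA, a log2 fold change of −1.98 (SE 0.118, limma adjusted p = 6.07e-07). Serpinc1 (antithrombin) is a serpin that inactivates thrombin and the activated form of factor X. Serpinc1 was at 3.09, 3.75, 3.28 and 3.69 TPM under LPS and at 0.51, 0.5, 0.97 and 1.21 TPM with UDCA (log2 fold change −1.33, SE 0.153, limma adjusted p = 4.3e-05). Both were clearly apart between groups, but 33.7% of the 31-base words of Serpinc1 are shared with Zbtb37, a gene on the opposite strand that went from 1.86 to 4.45 TPM, so its reads cannot be assigned with certainty. Proc, which encodes protein C itself, was at 0 in all libraries, and Thbd (thrombomodulin), the partner of Procr in its activation, was at most 0.02 TPM.

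Over the 4 pathway lists together, 57 genes were listed besides the 7, of which 13 were at 0 in all libraries and 22 were tested. Past a fold change of 2 and the FDR, 0 were upregulated and 5 were downregulated, against 8.71% and 8.44% of all genes tested. At the FDR alone, 5 were higher, 11 were lower and 6 did not pass, with a median log2 fold change of −0.31. The shares of all genes tested at the FDR alone were 40.2% higher and 32.3% lower. With all genes above 0 TPM in the fit, 1 pathway gene (Tgm2, a transglutaminase) was upregulated past both limits, and with at least 1 TPM required in every library 3 were downregulated, since Pros1 and Serpinc1 then left the fit.

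**Figure D4:**
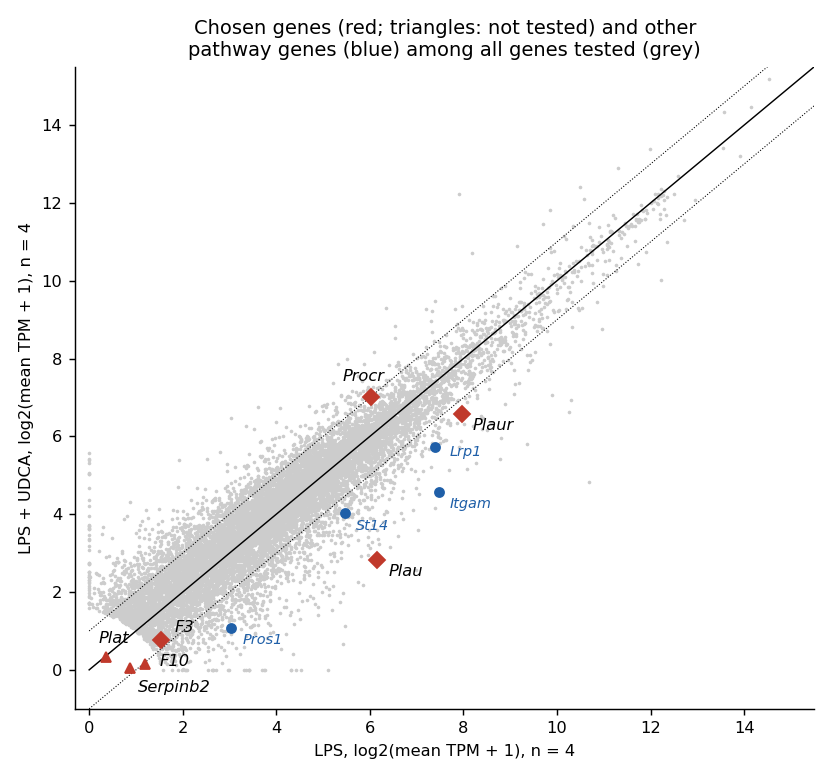
Mean level with LPS + UDCA (y axis) against LPS (x axis), both as log2(mean TPM + 1) with n = 4, for all 11796 tested genes (grey), the 7 picked genes (red, triangles where not tested) and 4 other pathway genes (blue). The solid line marks equal levels and the dotted lines a fold change of 2. Plau and Itgam lie far below the lower line, and Procr lies at the upper line.

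Genes with a profile most like each member were looked for among 7069 genes whose mean reached 10 TPM, by the root mean square difference over the 8 libraries of log2(TPM + 1) set relative to the LPS mean. For Plau these were Il1rn (difference 0.109), the secreted antagonist of the interleukin-1 receptor, and Tcf19 (0.126), a nuclear protein. Il1rn went from 1266 to 122 TPM and Tcf19 from 28.9 to 2.05 TPM. For Plaur they were the chemokines Cxcl2 (0.0410; 1858 to 700.3 TPM) and Ccl4 (0.0466; 5208 to 2023 TPM), with log2 fold changes of −1.41 and −1.37 beside the −1.39 of Plaur. For F3 they were the kinase gene Map3k20 (0.0954; 24.3 to 14.1 TPM) and the membrane protein gene Cmtm4 (0.104; 16.0 to 9.14 TPM). At the level of F3 the pseudocount compresses its log2 step, so this likeness holds on log2(TPM + 1) only, since the ratio of mean TPM of F3 (2.63) exceeded that of both genes. For Procr they were Ip6k2 (0.0471; 24.0 to 48.8 TPM), an inositol phosphate kinase, and Eif2s2 (0.0472; 64.9 to 129 TPM), a subunit of a translation initiation factor. These likenesses rest on the same libraries and mostly on the step between the groups, and they are given as a description with no test.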

How the data were processed

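RNA from 8 libraries of J774A.1 cells was sequenced, 4 with LPS and 4 with LPS + UDCA, grouped by the sample labels. The authors deposited a table of TPM per gene, kept to 2 decimals, and the unit was inferred from column sums a little under 1e+06. Submitters' processing notes list Bowtie 0.12.2 and the builds mm10 and GRCm38, and the counting program and whether counting used strand are not given in the sources used here. The labels do not say whether libraries came from separate cultures. The p-values therefore set the group difference against the variation between these libraries only, which may not be that between cultures.

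Values of the 11796 genes whose mean reached 1 TPM were fitted as log2(TPM + 1) with limma 3.58.1 (lmFit, eBayes with trend) in R 4.3.3, with Benjamini-Hochberg adjustment over all of them. Calls needed a fold change of 2 and an FDR under 0.05. A fold change on log2(TPM + 1) understates the change of low genes. SEs of genes outside the fit were computed from the group SDs. The procedure was tested on simulated data. Members and gene lists were chosen with earlier results of these data known. Besides the 7 members, the genes named were list genes past both limits, the most abundant tested gene of each list (1 of these is not reported here), Serpin genes past both limits, and the 2 nearest profiles of each tested member. Others were named after their values were seen. Alternatives covered scaling (median-of-ratios, quantile), filters, pseudocount 0.1, a replicate block, the fold change minimum, the variance trend and leaving out each library. Positions and UTRs are from GENCODE M21 (GRCm38), which holds 55227 of the 55487 genes, and promoters are from RefSeq (GRCm38.p6). For each named gene, runs of 31 bases were compared with all other genes to give the share found elsewhere. Tables were made with pandas 2.3.3 in Python 3.11.15 and figures with matplotlib 3.10.9.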

Additional observations from a re-analysis of the deposited data

How the results depend on the processing

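The counts of genes past both limits, 1028 upregulated and 995 downregulated, became 4741 and 3807 with no fold change minimum, 857 and 1121 with median-of-ratios scaling, and 874 and 1088 with quantile normalization. Among pathway genes, 0 upregulated became 5 and 5 downregulated became 11 with no fold change minimum. With all genes above 0 TPM, 1 pathway gene was upregulated, and when every library had to reach 1 TPM, 3 were downregulated, as Pros1 and Serpinc1 were then not tested. Leaving out each library gave 959 to 1122 upregulated and 972 to 1033 downregulated genes, with 0 to 0 and 5 to 6 pathway genes. No member whose groups were apart changed direction under any alternative run. Leaving out each library moved Plau between −3.38 and −3.27, Plaur between −1.43 and −1.35, Plat between −0.07 and 0.01, Serpinb2 between −0.92 and −0.63, F3 between −0.84 and −0.66, F10 between −1.12 and −0.92 and Procr between 0.96 and 1.03. A pseudocount of 0.1 gave Plau −3.52, and quantile normalization gave Plaur −1.29. The median log2 fold change of all genes was 0.08, and 0.01 with median-of-ratios scaling.

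The labels do not say that a replicate number marks a shared culture or day, and the libraries were not treated as paired. Deviations of same-numbered libraries correlated at −0.035 to 0.146 (mean 0.0876, 3 of 4 pairs over 0.1), those of others at −0.145 to 0.162 (mean −0.029, 1 of 12 over 0.1), and 5 of 8 libraries correlated best with their own number. With the replicate block, 1034 genes were upregulated and 1000 downregulated, with 0 and 5 pathway genes, and 2020 of the 2034 genes were also among the 2023 of the fit without it.

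Depth is unknown with TPM, so for Plat, Serpinb2 and F10, at around or below 1 TPM, the counting error behind each value cannot be given.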

Other observations

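Some genes of the lists fell outside the comparisons above and were chosen after their values were seen. F8, which encodes coagulation factor VIII, was at 1.93, 1.44, 1.76 and 1.68 TPM under LPS and at 0.35, 5.79, 0.41 and 0.6 TPM with UDCA, so LPS + UDCA replicate 2 stood apart from the other libraries of its group, which were all below the LPS libraries. Tgm2, a transglutaminase that crosslinks proteins and is related to the enzyme that stabilises fibrin, was at 0.24, 0.14, 0.14 and 0.04 TPM under LPS and at 1.39, 1.37, 1.35 and 1.29 TPM with UDCA, and its mean over the 8 libraries was under 1 TPM, so it entered only the fit of all genes above 0 TPM. Serpinf1, a secreted serpin that does not inhibit proteases, was at 1.21, 0.97, 1.5 and 2.31 TPM under LPS and at 0.22, 0, 0.35 and 0.17 TPM with UDCA, and did not enter the fit of genes that reached a mean of 1 TPM.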
